A study of Homo sapiens with 18 samples.

Results

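The response of Farage to a BCL6 inhibitor was measured in 6 of the 18 RNA-seq libraries of the series. Of these, 3 were of cells given DMSO, the vehicle, for 12 h. The other 3 were of cells given the BCL6 inhibitor 79-6.1085, known here by its code name only, at 10 µM for 12 h. Farage is an established human diffuse large B cell lymphoma (DLBCL) line that is known to carry Epstein-Barr virus, and the labels state no other alteration of these cells. The other 12 libraries come from 2 further DLBCL lines, SUDHL6 and SUDHL4, under the same treatments, and are used here only to show where Farage differed. Expression is given as CPM, the reads of a gene per M reads of its library. A gene was tested if it reached 1 CPM in at least 3 of the 6 Farage libraries, which 11629 of 23250 gene symbols did, and limma was fitted to log2(CPM + 1) of these 6 libraries alone. Calls, higher or lower, needed an adjusted p under 0.05, and every fold change below is of inhibitor against DMSO on that log2 scale, which understates the change of weakly expressed genes.

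BCL6 is a zinc finger repressor that maintains the germinal centre B cell state, in which B cells divide rapidly and remodel their antibody genes. Through its BTB domain it recruits corepressors such as NCOR1 and BCOR, and BCOR is itself the core of a variant Polycomb repressive complex 1 (PRC1). CBX8 is a PRC1 subunit that reads methylated histone H3, and EZH2, in Polycomb repressive complex 2 (PRC2), is the enzyme that writes that methylation. In B cells BCL6 is known to hold down genes of the DNA damage response, of activation through CD40 and the B cell receptor, and of plasma cell differentiation. The comparison addresses which genes change in this line when the inhibitor is given. Whether a change came through BCL6 was not tested.

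Each library had 20.2 to 24.1 M reads on the listed genes, 75.1% to 80.4% of the total used for CPM. That total was 26.6 to 30.8 M reads, so that 3 reads correspond to 0.0976 to 0.113 CPM. Log2 values of libraries of the same group correlated at 0.9973 to 0.9984 across genes, against 0.898 to 0.909 between groups, and the first principal component (97.3% of the variance) separated treatment from vehicle. The B cell label was checked against markers: 9 B cell marker genes summed to 4013 to 4190 CPM in the DMSO libraries and 2146 to 2270 CPM in the treated ones. Of 30 markers of T, NK, myeloid, erythroid, platelet, stromal and epithelial cells, 25 stayed under 1 CPM in all 6 libraries, and 7 were at 0, CD3D, CD3E, HBB, PPBP, PF4 and COL1A2 among them. Their sum was 10.8 to 12.5 CPM with DMSO and 6.58 to 7.11 CPM with the inhibitor. COL1A1, a stromal marker, fell: it lay between 5.43 and 7.27 CPM with DMSO and between 0.945 and 1.31 CPM with the inhibitor. CD8A, a T cell marker (0.958 to 1.16 and 0.188 to 0.268 CPM), and PRF1, an NK cell marker (2.11 to 2.52 and 0.872 to 1.05 CPM), fell too. TRAT1, another T cell marker (0.181 to 0.52 and 1.76 to 2.21 CPM), and CD14, a myeloid marker (0.13 to 0.181 and 1.64 to 2.05 CPM), rose. The part of these markers in the results was not tested. In bulk RNA, fewer cells of a state and less RNA per cell cannot be told apart, and CPM are shares of a library, not amounts per cell.

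Most genes tested changed. Of the 11629 genes tested, 10133 (87.1%) were called: 3646 (31.4%) higher and 6487 (55.8%) lower. The treated and DMSO values did not overlap in 10143 genes (87.2%). At least 2-fold changes were called upward for 938 genes (8.07%) and downward for 2436 (20.9%). The median gene changed by -0.28, with the 10th percentile at -1.40 and the 90th at 0.88. This centre depends on the scaling. When the libraries were scaled by median of ratios instead of total reads, the median was -0.01, 4959 genes were called higher and 5118 lower, and 1478 and 1567 passed 2-fold, so that 49.2% of calls were higher in place of 36%. Changes of gene lists are therefore read beside the median of all genes, and where the other scaling turns a direction both values are given. Counts of calls in a list are to be read beside the 31.4% higher and 55.8% lower of all genes. Genes under 1 CPM in every library of 1 group passed the filter only through the other group, which set their direction. Among those named below, CCL3, CD69, BAG3, OSGIN1 and FOSB were so with DMSO and VPREB3 with the inhibitor. Of 304 genes with a DMSO mean under 1 CPM, 149 were called at least 2-fold higher and 0 lower.

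**Figure D1:**
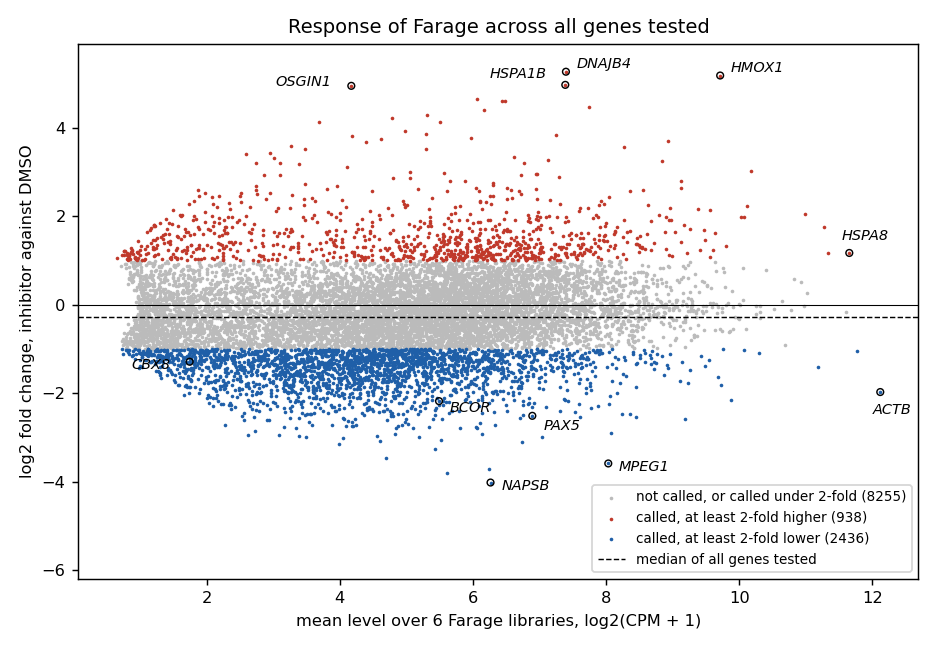
Each point is 1 of the 11629 genes tested in Farage; the x axis is the mean log2(CPM + 1) over the 6 libraries and the y axis the log2 fold change of inhibitor against DMSO. The 938 genes called at least 2-fold higher (red) reach farther from 0 than the 2436 called at least 2-fold lower (blue), and the dashed median of all genes lies at -0.28.

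The largest rises exceeded the largest falls. At least 4-fold rises were called for 157 genes and 4-fold falls for 298, but 8-fold changes for 38 genes upward and 11 downward. DNAJB4, a J-domain cochaperone of HSP70, stood at 6.99, 7.77 and 7.7 CPM with DMSO and 332, 351 and 299.6 CPM with the inhibitor (log2 fold change 5.27, SE 0.0628, adjusted p = 3.11e-19). HMOX1, the heme oxygenase that breaks down heme, stood at 42.1, 46 and 43.4 CPM with DMSO and 1534, 1627 and 1736 CPM with the inhibitor (log2 fold change 5.19, SE 0.0522, adjusted p = 3.05e-20). In both genes every treated library lay more than an order of magnitude above every DMSO library. The next largest rises, all without overlap between the groups, were HSPA1B (4.98), OSGIN1, an oxidative stress gene (4.95), KLHL21, a cullin 3 adaptor (4.65), TNFRSF10D, a decoy receptor for TRAIL (4.62), HSPA1A (4.6), GCLM (4.46) and DUSP5, a phosphatase of ERK (4.41). CAB39L rose by 4.3, FOSL2 by 4.22, BAG3 by 4.12, GABARAPL1 by 3.94, MAFF by 3.87 and ATF3 by 3.85.

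The largest falls were in genes of B cell and immune function together with genes of other kinds. NAPSB, a transcribed pseudogene of an aspartic peptidase, stood at 137, 154 and 140.3 CPM with DMSO and 8.34, 7.72 and 7.64 CPM with the inhibitor (log2 fold change -4.02, SE 0.0627, adjusted p = 5.88e-18). MPEG1, the pore-forming protein perforin-2, stood at 499.5, 469 and 479 CPM with DMSO and 37.4, 40.2 and 39.7 CPM with the inhibitor (log2 fold change -3.59, SE 0.0473, adjusted p = 6.78e-19). In both genes every treated library lay about an order of magnitude below every DMSO library. SNX22, a sorting nexin, fell by 3.8 on the log2 scale, CUX2, a homeobox factor, by 3.72, IKBKE, a kinase of innate signalling, by 3.47, MZB1, an endoplasmic reticulum protein of antibody-forming B cells, by 3.26, and BTLA, an inhibitory receptor, by 3.16. HLA-DMB fell by 3.1, ABCD2, a peroxisomal transporter, by 3.09, FBN1, fibrillin, by 3.05, RSAD1 by 3.02, CDCA7 by 3.0, KCNN4, a calcium-activated potassium channel, by 2.99, XAF1 by 2.98 and TMOD2, an actin-capping tropomodulin, by 2.98. The groups did not overlap in any of these 15 genes, as their naming required.

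The make-up of the RNA shifted with these changes. The genes called at least 2-fold higher, chosen for that rise, held 44836 to 45822 CPM in the DMSO libraries and 136715 to 140512 CPM in the treated ones, while those called at least 2-fold lower held 168753 to 173834 and 58976 to 63113 CPM. Among genes with most CPM gained were HSP90AA1, from 1127 ± 35.7 to 3802 ± 123 CPM (mean ± SD, n = 3 here and below), FTL, the ferritin light chain, from 783 ± 60.2 to 3268 ± 340.4 CPM, and SLAMF7, a SLAM family receptor, from 433 ± 15.1 to 1710.0 ± 54.8 CPM. RGS1, a brake on chemokine receptor signalling, rose from 389 ± 19.2 to 1829 ± 53.8 CPM. Those that lost most were ACTB, cytoplasmic actin, from 7084 ± 192 to 1801 ± 44.9 CPM, LCP1, the leukocyte actin bundler, from 4679 ± 172 to 2278 ± 60.6 CPM, and ACTG1, from 3361 ± 76.5 to 1276 ± 68.2 CPM. CORO1A, an actin regulator of leukocytes, fell from 1321 ± 77.5 to 373 ± 37.4 CPM, LAPTM5, a lysosomal protein of blood cells, from 2148 ± 58.2 to 1136 ± 27.5 CPM, MS4A1, which encodes CD20, from 1722 ± 75 to 801 ± 23.5 CPM, and SORL1, a sorting receptor, from 1242 ± 42 to 398 ± 13.3 CPM. The common housekeeping controls ACTB and ACTG1 were thus among the genes that lost most CPM. On the log2 scale they changed by -1.97 and -1.40, beside a 10th percentile of -1.40 over all genes. After median-of-ratios scaling they changed by -1.68 and -1.11.

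A small set of genes went from almost no reads to clear expression. With at most 3 reads in every DMSO library and at least 1 CPM in every treated one there were 20 genes. PLEKHA6, a pleckstrin homology protein, was at 11.7, 9.72 and 8.58 CPM with the inhibitor, at least 96-fold above the level of 3 reads per DMSO library. GCM1, a transcription factor of the placenta, was at 3.84, 3.58 and 3.35 CPM (at least 34.5-fold higher), and FOSL1, an AP-1 subunit, at 2.77, 3.09 and 3.59 CPM (at least 30.2-fold higher). These genes are known from other tissues or from the acute response to signals. SLC6A13 (at least 27.2-fold higher), DUOX2, a hydrogen peroxide-forming oxidase (at least 25-fold higher), and RAPGEF4 (at least 24.9-fold higher) followed. In the opposite direction there was 1 gene, the chemokine receptor CXCR3, at 1.33, 1.35 and 1.23 CPM with DMSO and at most 3 reads in each treated library (at least 12.6-fold lower).

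BCL6 mRNA itself was not called. It stood at 207, 205 and 203 CPM with DMSO and 205, 205 and 224 CPM with the inhibitor (log2 fold change 0.04, SE 0.047, adjusted p = 0.406), and the groups overlapped; with median-of-ratios scaling it was called higher (0.33), and without treated replicate 3 its change was -0.00022 (adjusted p = 0.996). BCOR stood at 74.4, 71.1 and 72.1 CPM with DMSO and 14.8, 13.1 and 18.1 CPM with the inhibitor (log2 fold change -2.18, SE 0.0838, adjusted p = 1.83e-13), with every treated library far below every DMSO library. CBX8, a low-level gene, was at 3.48, 4.22 and 3.54 CPM with DMSO and 1.24, 0.678 and 0.939 CPM with the inhibitor (log2 fold change -1.29, SE 0.116, adjusted p = 1.33e-08). EZH2 was at 60.2, 59 and 60.4 CPM with DMSO and 66.6, 64.7 and 64.6 CPM with the inhibitor (log2 fold change 0.12, SE 0.048, adjusted p = 0.0247), a small rise with no overlap between groups, and at 0.41 with median-of-ratios scaling. The EZH2 call ended without DMSO replicate 2 or 3 or without treated replicate 1 or 2 (adjusted p 0.0531 to 0.0840) and with all 3 lines in the fit (adjusted p = 0.519). Of the 4, BCOR and CBX8 therefore fell well below the median of all genes, and BCL6 and EZH2 stayed within 0.12 of 0 on the scale of deposited CPM.

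Other Polycomb subunits moved in both directions. In the list of PRC1 and BCOR complex genes, 10 of 23 tested members were called higher and 10 lower, with a median of -0.02 that became 0.26 with median-of-ratios scaling. The chromodomain subunits CBX7 and CBX2 fell, CBX7 from 34.3 ± 0.339 to 5.99 ± 0.28 CPM (-2.34) and CBX2 from 6.45 ± 0.223 to 1.12 ± 0.213 CPM (-1.82). RYBP, which joins variant PRC1, rose from 72.4 ± 0.0447 to 271 ± 16.3 CPM (1.89). In PRC2, 4 of 11 tested members were called higher and 7 lower, against 31.4% and 55.8% of all genes (median -0.32 against -0.28). The accessory subunits PHF19 and PHF1, which bind methylated histone H3, went opposite ways, PHF19 from 95.1 ± 0.801 to 23.2 ± 2.51 CPM (-2.0) and PHF1 from 28.4 ± 0.615 to 75.9 ± 2.23 CPM (1.39). The histone chaperones RBBP7 (-1.56) and RBBP4 (-1.05) and the other methyltransferase EZH1 (-0.84) fell, and the core subunit SUZ12 rose (0.55).

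Among BCL6 corepressors, 3 of 16 tested members were called higher and 11 lower (median -0.40), and BCOR had the largest change. The histone deacetylase genes HDAC7, from 118 ± 3.44 to 62 ± 4.98 CPM (-0.91), and HDAC1 (-0.70) and the corepressor CTBP1 (-0.60) fell, while HDAC4 rose (0.69). Genes known as targets that BCL6 represses changed in both directions. Of these 9 of 22 tested members were called higher and 9 lower, against 31.4% and 55.8% of all genes, with a median of -0.04. Median-of-ratios scaling gave 12 higher and 4 lower with a median of 0.25. CCL3 and CD69, both among the higher, were under 1 CPM in every DMSO library and were tested only through their treated values. The members named here are all risers, known from B cell activation and differentiation, and those called lower are not named. The chemokine CCL3 rose from 0.565 ± 0.138 to 6.33 ± 1.06 CPM (2.22), IRF4, a factor that drives exit from the germinal centre, from 335 ± 9.14 to 1081 ± 21.7 CPM (1.69), CD69, an early activation antigen, from 0.556 ± 0.0763 to 3.9 ± 0.102 CPM (1.65), CD274, which encodes PD-L1, from 17.5 ± 0.294 to 45 ± 3.28 CPM (1.31), and PRDM1, the repressor that drives plasma cell differentiation, from 2.83 ± 0.367 to 8.43 ± 0.891 CPM (1.3).

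**Figure D2:**
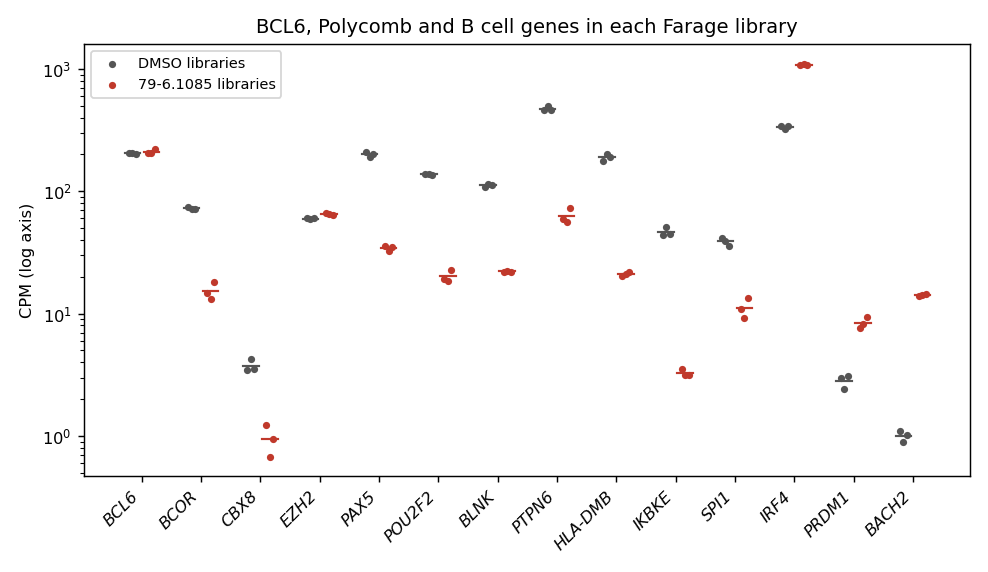
CPM on a log axis for BCL6, 3 Polycomb genes and 10 B cell genes in each Farage library, 3 with DMSO (grey) and 3 with 79-6.1085 (red), with a bar at each mean. BCL6 and EZH2 lie at nearly the same height in both groups, IRF4, PRDM1 and BACH2 lie higher with the inhibitor, and the other 9 lie lower with no overlap.

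The heat shock response bears on protein folding: when unfolded proteins accumulate, the factor HSF1 binds heat shock elements, alternating copies of GAA and its reverse complement, and switches on chaperone genes. To show where such elements lie, the 250 bases before the start of 3 induced chaperone genes follow, from RefSeq on GRCh38.p14 and written 5′ to 3′ on the gene's strand, with matches to GAANNTTCNNGAA or its reverse complement in capitals. The files themselves were aligned to hg19, so these coordinates belong to the RefSeq table only.
HSP90AA1 (chr14:102087045-102087294, minus strand): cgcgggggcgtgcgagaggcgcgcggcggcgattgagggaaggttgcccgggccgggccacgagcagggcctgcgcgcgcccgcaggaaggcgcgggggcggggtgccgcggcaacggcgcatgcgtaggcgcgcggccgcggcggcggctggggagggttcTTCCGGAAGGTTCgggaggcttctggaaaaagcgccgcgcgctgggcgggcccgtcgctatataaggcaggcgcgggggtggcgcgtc
HSP90AB1 (chr6:44247693-44247942, plus strand): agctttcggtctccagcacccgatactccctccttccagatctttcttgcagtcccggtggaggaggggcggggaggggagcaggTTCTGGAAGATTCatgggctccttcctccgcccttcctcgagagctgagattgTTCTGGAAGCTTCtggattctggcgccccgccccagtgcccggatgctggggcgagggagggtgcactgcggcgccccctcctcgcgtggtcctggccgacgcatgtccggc
HSPA8 (chr11:123062137-123062386, minus strand): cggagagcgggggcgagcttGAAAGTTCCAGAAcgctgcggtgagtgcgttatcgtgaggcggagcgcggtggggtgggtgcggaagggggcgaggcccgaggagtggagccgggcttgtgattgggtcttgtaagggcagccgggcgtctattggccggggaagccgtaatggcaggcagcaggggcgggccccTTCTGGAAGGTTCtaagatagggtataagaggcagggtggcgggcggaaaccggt
HSP90AA1 has 1 match, and HSP90AB1 and HSPA8 have 2 each. Over the heat shock list, 23 genes had a promoter in the table and 6 held a match: the 3 above and HSPD1, SERPINH1 and CHORDC1, named for the match and not for their change. By promoter, 6 of 36 on the list held it, against 0.441% of all 35116 promoters of that length, 1.17% of those of genes called at least 2-fold higher and 0.285% of those called at least 2-fold lower. The list genes with the largest rises, DNAJB4, HSPA1B, HSPA1A, BAG3 and DNAJB1, were not among the 6 genes with a match. The genes called at least 2-fold higher include members of this list. A match is a description of the letters and shows no binding.

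Of the heat shock genes, 23 of 24 tested members were called higher and 1 lower, with a median of 1.48 against -0.28 for all genes; 17 were called at least 2-fold higher. The inducible HSP70 genes, which lie beside each other and share reads, stood at 6.76, 5.6 and 5.97 CPM with DMSO and 164, 166 and 184 CPM with the inhibitor for HSPA1A and at 9.53, 9.22 and 9.19 CPM with DMSO and 319.7, 324 and 326 CPM with the inhibitor for HSPA1B. BAG3, the HSP70 partner that routes clients to autophagy, stood at 0.26, 0.567 and 0.362 CPM with DMSO and 21.3, 24.1 and 24.4 CPM with the inhibitor (log2 fold change 4.12, SE 0.101, adjusted p = 7.68e-16). All 3 genes thus started low and were higher in each treated library than in any DMSO library. DNAJB1, the main inducible HSP40, rose from 86.3 ± 3.91 to 829 ± 41.9 CPM (3.25), and HSPA1L, the third member of that gene cluster, from 1.95 ± 0.209 to 15.5 ± 1.1 CPM (2.48). The abundant chaperones rose by less on the log scale and by more in CPM: HSPA8, the constitutive HSP70, from 1979 ± 144 to 4456 ± 196 CPM (1.17), and HSP90AB1 from 1580.1 ± 35.1 to 3582 ± 86.9 CPM (1.18). HSP90AA1 changed by 1.75. The listed heat shock genes together went from 7329 to 20408 CPM. In the wider family of J-domain cochaperones 17 of 37 tested members were called higher and 17 lower (31.4% and 55.8% of all genes), with a median of -0.02. Median-of-ratios scaling gave 20 higher and 10 lower in this family, with a median of 0.27. On deposited CPM, DNAJA1 was at 2.13 and DNAJC15, a mitochondrial member, at -2.12.

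NRF2 is the factor that escapes its inhibitor KEAP1 under oxidative or electrophilic stress and induces antioxidant genes through antioxidant response elements. GCLM, the modifier subunit of the enzyme that starts glutathione synthesis, was among the 15 largest rises. Its promoter holds a match to TGACNNNGC, the letters used here for such elements, so it is shown in the same way. Matches to these letters or their reverse complement are in capitals and show no binding.
GCLM (chr1:93909431-93909680, minus strand): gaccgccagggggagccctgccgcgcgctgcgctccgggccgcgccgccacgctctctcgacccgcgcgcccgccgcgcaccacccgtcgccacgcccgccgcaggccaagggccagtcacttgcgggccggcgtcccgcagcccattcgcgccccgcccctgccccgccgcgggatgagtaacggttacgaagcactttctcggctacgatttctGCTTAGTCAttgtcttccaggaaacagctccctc
This short motif is common: 10.9% of all promoters of that length held it, against 7 of 27 promoters on the NRF2 list, from 6 of 20 genes with a promoter in the table. The share was 11.9% for all genes tested, 13.3% for those called at least 2-fold higher and 11.7% for those called at least 2-fold lower. GCLM stood at 17.3, 16.2 and 19.2 CPM with DMSO and 393, 416 and 417 CPM with the inhibitor (log2 fold change 4.46, SE 0.0574, adjusted p = 5.30e-19), every treated library far above every DMSO library.

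Of the NRF2 response genes, 21 of 26 tested members were called higher and 4 lower, with a median of 1.6, and 16 passed 2-fold upward. OSGIN1 stood at 0.195, 0.0355 and 0.145 CPM with DMSO and 31.8, 31.4 and 38.6 CPM with the inhibitor (log2 fold change 4.95, SE 0.10, adjusted p = 1.05e-16), from near absence to clear expression. NQO1, a quinone reductase and the classic NRF2 target, rose from 7.44 ± 1.02 to 115 ± 14.6 CPM (3.78). SRXN1, which repairs oxidised peroxiredoxins, rose from 25.2 ± 1.34 to 253 ± 11.6 CPM (3.28), and SLC7A11, the cystine importer that feeds glutathione synthesis, from 46.7 ± 2.53 to 568 ± 49.4 CPM (3.57). The heme, glutathione, thiol and quinone branches of the response thus all held risen members. The NRF2 list as a whole went from 3701 to 13009.5 CPM. Metallothioneins, the metal-binding proteins that often rise with metal stress, did not follow: MT2A fell from 4.1 ± 0.628 to 2.61 ± 0.292 CPM (-0.49) and MT1X from 3.56 ± 0.0827 to 1.9 ± 0.111 CPM (-0.65), though their calls ended with DESeq2 (MT2A, adjusted p = 0.0832) or with all 3 lines in the fit (MT1X, adjusted p = 0.0544), while their activator MTF1 rose from 39.7 ± 0.347 to 92.5 ± 2.12 CPM (1.2). With median-of-ratios scaling MT2A was at -0.27 and MT1X at -0.44.

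**Figure D3:**
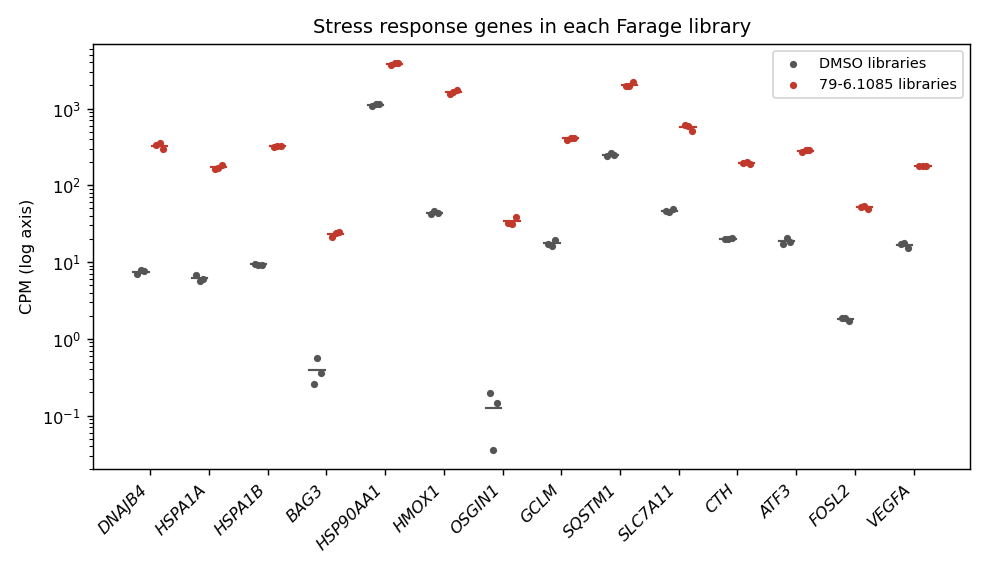
CPM on a log axis for 14 stress response genes in each Farage library, 3 with DMSO (grey) and 3 with 79-6.1085 (red), with a bar at each mean. The groups do not overlap in any of them, and the treated values of DNAJB4, HSPA1A, HMOX1 and OSGIN1 lie more than an order of magnitude above those with DMSO.

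ATF4 is the transcription factor of the integrated stress response, translated when initiation factor eIF2 is phosphorylated, and it induces amino acid import and synthesis. Of its listed targets, 23 of 25 tested members were called higher and 2 lower (median 1.52). CTH, which makes cysteine by transsulfuration, rose from 20.1 ± 0.23 to 195 ± 3.63 CPM (3.21). DDIT3, which encodes the stress factor CHOP, rose from 11.6 ± 0.853 to 86.6 ± 3.52 CPM (2.8), and STC2, a secreted glycoprotein, from 17.3 ± 0.873 to 113 ± 2.85 CPM (2.64). The amino acid transporter chain SLC3A2 (2.79) and its partner SLC7A5 (2.63) rose together with SLC7A11. Some of the listed genes are shared with the NRF2 list, SLC7A11 among them.

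Enzymes downstream of amino acid supply were split. Of the cytosolic aminoacyl-tRNA synthetases, which charge tRNAs, 10 of 20 tested members were called higher and 9 lower (median 0.17): GARS (1.6), TARS (1.28) and WARS (1.25) rose, and VARS (-1.96), FARSB (-1.48) and FARSA (-1.05) fell. In the serine and folate list 6 of 13 tested members were called higher and 6 lower (median 0.15). The serine synthesis enzymes PSAT1, from 93.4 ± 5.12 to 375 ± 14.5 CPM (2.0), and PHGDH (0.72) and the mitochondrial folate enzyme MTHFD2 (1.2) rose. The cytosolic folate enzymes MTHFD1, from 181 ± 4.24 to 31.4 ± 1.47 CPM (-2.49), and SHMT1 (-1.44) fell. Of the folate enzymes described here, the mitochondrial MTHFD2 therefore rose while the cytosolic MTHFD1 and SHMT1 fell.

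Autophagy and lysosome genes leaned upward. Of the autophagy genes, 22 of 27 tested members were called higher and 5 lower (median 0.60). GABARAPL1, an ATG8 protein of the autophagosome, stood at 2.99, 2.94 and 2.68 CPM with DMSO and 54.9, 57.9 and 62.3 CPM with the inhibitor (log2 fold change 3.94, SE 0.0759, adjusted p = 5.96e-17), and the cargo receptor SQSTM1, which encodes p62, at 238, 266 and 250.1 CPM with DMSO and 1945, 1966 and 2245 CPM with the inhibitor (log2 fold change 3.02, SE 0.0593, adjusted p = 7.14e-17). Neither gene's groups overlapped. MAP1LC3B, which encodes LC3B, rose from 78.5 ± 2.65 to 406 ± 11.6 CPM (2.36), the lysosomal regulator TFE3 by 1.7, ATG14 by 1.37 and the cargo receptor CALCOCO2 by 1.36. Of the lysosome genes, 15 of 21 tested members were called higher and 4 lower (median 0.44): the glycosidases GLA (2.76), NEU1 (1.91) and HEXA (1.23) and the proton pump subunit ATP6V1C1 (1.87) rose, and the protease CTSH (-2.48) and the glucuronidase GUSB (-1.27) fell. FOXO targets and brakes on mTOR included 10 called higher of 14 and 1 lower, with TSC22D3, the glucocorticoid-induced leucine zipper gene, at 2.99, IRS2 at 2.52, SESN2 at 2.1, TSC1 at 1.53 and, in the other direction, TXNIP, a thioredoxin inhibitor, at -1.38.

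In 2 other arms of protein quality control the split of calls depended on the scaling. In the endoplasmic reticulum list 9 of 20 tested members were called higher and 9 lower, and the median of -0.05 turned to 0.24 with median-of-ratios scaling, which called 12 higher and 6 lower. The stress sensor ERN1, which encodes IRE1, rose from 3.7 ± 0.62 to 16.7 ± 0.445 CPM (1.92), and its target XBP1 from 6.24 ± 0.963 to 15.8 ± 0.533 CPM (1.22). The J-domain proteins DNAJC3 (1.61) and DNAJB9 (1.27) rose as well, while the folding factors SDF2L1 (-2.02) and PDIA4 (-1.72) fell. Of the proteasome subunits 9 of 31 tested members were called higher and 15 lower with a median of -0.08 that became 0.21 with the other scaling, which called 17 higher and 9 lower; PSMA6 (-0.81) and PSMD11 (0.78) marked the extremes.

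**Figure D4:**
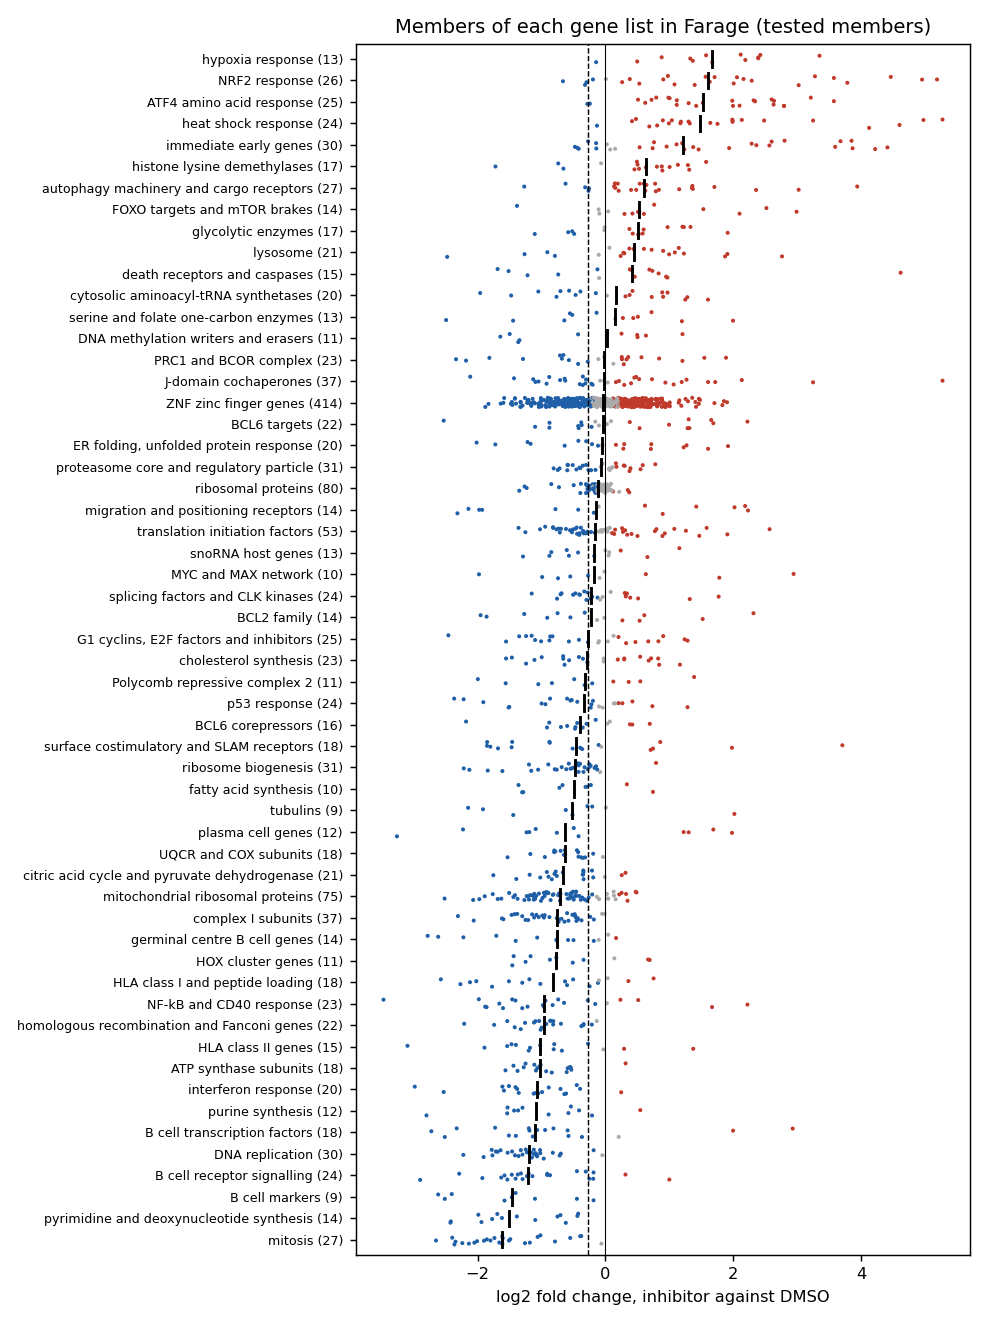
Log2 fold change of inhibitor against DMSO (x axis) for the tested members of each gene list with at least 9 tested members (number in brackets), coloured by call (red higher, blue lower, grey not called); black bars are list medians, vertical spread of points carries no value, and the dashed line is the median of all genes at -0.28. The 4 lists at the top, hypoxia, NRF2, ATF4 and heat shock, have medians of 1.48 to 1.67, and mitosis lies at the bottom at -1.61.

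Immediate early genes, which respond to signals without new protein synthesis, were higher 12 h after treatment began: 21 of 30 tested members were called higher and 6 lower (median 1.22). The AP-1 subunits FOS and FOSB stood at 1.92, 2.09 and 2.17 CPM with DMSO and 37.4, 40.9 and 36.3 CPM with the inhibitor for FOS and 0.39, 0.39 and 0.615 CPM with DMSO and 18.6, 16.6 and 14.9 CPM with the inhibitor for FOSB. FOSL2 rose from 1.82 ± 0.106 to 51.5 ± 2.12 CPM (4.22), the small MAF protein MAFF from 4.03 ± 0.438 to 72.3 ± 6.18 CPM (3.87), and ATF3 from 18.7 ± 1.87 to 282 ± 9.83 CPM (3.85). DUSP5, which dephosphorylates ERK in the nucleus, rose from 5.44 ± 0.389 to 136 ± 9.46 CPM (4.41). Transcription factors and a phosphatase of the same list thus rose in the same libraries, and whether they share a pathway here was not tested.

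Hypoxia genes, known as targets of HIF1, had the highest median of the lists plotted: 12 of 13 tested members were called higher and 1 lower (median 1.67). VEGFA, the vascular growth factor, stood at 17, 17.5 and 15.4 CPM with DMSO and 179, 178 and 178 CPM with the inhibitor (log2 fold change 3.35, SE 0.0551, adjusted p = 9.25e-18), with no overlap. The glucose transporter SLC2A3 rose from 29.3 ± 1.72 to 162 ± 7.79 CPM (2.42), the collagen prolyl hydroxylase P4HA1 by 2.39, and ANKRD37 by 2.19. BNIP3 (2.39) and BNIP3L (2.11), receptors for the removal of mitochondria by autophagy, rose too. Glycolytic enzymes followed in part: 11 of 17 tested members were called higher and 4 lower (median 0.51), with TPI1 from 209.7 ± 17.7 to 792 ± 72.1 CPM (1.91), LDHA (1.33), ALDOC (1.23), HK2 (1.2) and PGK1 (0.97) higher and PFKL (-1.11) lower.

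Genes of B cell identity fell. Of the transcription factors of the germinal centre and B lineage, 2 of 18 tested members were called higher and 15 lower (median -1.1). PAX5, the factor that commits cells to the B lineage, stood at 209, 191 and 203 CPM with DMSO and 35.4, 32.6 and 35.1 CPM with the inhibitor (log2 fold change -2.51, SE 0.0521, adjusted p = 1.40e-16). POU2F2, which encodes OCT2, stood at 138, 139.6 and 136 CPM with DMSO and 19.1, 18.4 and 22.9 CPM with the inhibitor (log2 fold change -2.72, SE 0.0673, adjusted p = 8.94e-16). Every treated library was far below every DMSO library for both. BCL11A fell from 13.9 ± 0.64 to 1.99 ± 0.325 CPM (-2.33) and SPI1, which encodes PU.1, from 39 ± 2.93 to 11.2 ± 2.16 CPM (-1.73). The exceptions were BACH2, a repressor that opposes plasma cell differentiation, which rose from 1.0 ± 0.11 to 14.2 ± 0.262 CPM (2.93), and ID3, an inhibitor of E proteins, from 5.21 ± 1.15 to 23.6 ± 2.52 CPM (2.0).

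Most germinal centre genes fell: 1 of 14 tested members were called higher and 11 lower (median -0.77), and 3 higher and 10 lower with median-of-ratios scaling. ELL3, an elongation factor, stood at 111, 119 and 115 CPM with DMSO and 17.1, 14.6 and 16 CPM with the inhibitor (log2 fold change -2.78, SE 0.0618, adjusted p = 2.65e-16), with no overlap. VPREB3 (-2.62), SERPINA9 (-1.71), the surface peptidase MME, known as CD10 (-1.4), and LMO2 (-1.07) fell as well. Of the plasma cell genes 4 of 12 were called higher and 8 lower, against 31.4% and 55.8% of all genes. IRF4 and PRDM1 rose with SLAMF7 (1.98), whereas MZB1 (-3.26), TNFRSF17, the BCMA receptor (-2.23), and SEC11C, a signal peptidase subunit (-1.23), fell.

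The B cell receptor pathway passes antigen binding through CD79A and CD79B to the kinases LYN, SYK and BTK. Of its listed genes, 2 of 24 tested members were called higher and 22 lower (median -1.21), and 14 fell at least 2-fold. BLNK, the adaptor behind SYK, stood at 108, 115 and 112 CPM with DMSO and 22.1, 22.3 and 22 CPM with the inhibitor (log2 fold change -2.29, SE 0.0513, adjusted p = 2.94e-16). The inhibitory phosphatase PTPN6, known as SHP-1, stood at 461, 495 and 465 CPM with DMSO and 59.3, 56.3 and 73.7 CPM with the inhibitor (log2 fold change -2.9, SE 0.0735, adjusted p = 1.22e-15). Adaptor and brake both fell, with no overlap in either. CD79B fell from 65.6 ± 5.79 to 21.4 ± 3.85 CPM (-1.58) and BTK from 129 ± 6.37 to 44.1 ± 2.68 CPM (-1.53), and the inhibitory arm lost INPP5D, which encodes SHIP1 (-1.93), and the Fc receptor FCGR2B (-1.63). All 9 B cell markers were called lower, BLK (-1.41) and FCRLA (-2.4) among them, although with median-of-ratios scaling 8 were lower and 1 higher.

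NF-kB and CD40 response genes fell for the most part: 4 of 23 tested members were called higher and 18 lower (median -0.96). IKBKE stood at 44.2, 50.9 and 44.4 CPM with DMSO and 3.55, 3.13 and 3.15 CPM with the inhibitor (log2 fold change -3.47, SE 0.0806, adjusted p = 4.57e-16), and each treated library was more than an order of magnitude below each DMSO library. The cytokine LTB (-1.98), the chemokine CCL22 (-1.88) and the survival gene BCL2A1 (-1.86) fell, while CCL3 (2.22) and the activation marker CD83 (1.67) rose. Interferon response genes fell nearly as a block, 19 of 20 lower and 1 higher (median -1.08). XAF1 fell from 19 ± 0.964 to 1.53 ± 0.201 CPM (-2.98). The antiviral enzymes OAS2 (-1.61) and OAS3 (-1.41), the GTPase MX2 (-1.51) and the ubiquitin-like ISG15 (-1.38) fell too.

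Most of the listed antigen presentation genes fell in both classes. Of the HLA class II genes, 2 of 15 tested members were called higher and 12 lower (median -1.02). HLA-DMB, the chaperone that loads peptide onto class II, stood at 175, 203 and 189.8 CPM with DMSO and 20.5, 21.2 and 22 CPM with the inhibitor (log2 fold change -3.1, SE 0.058, adjusted p = 4.29e-17). The class II activators CIITA (-1.4) and RFX5 (-1.89) and the loading regulators HLA-DOA (-1.47) and HLA-DOB (-1.54) fell with it. HLA-DQB1 was called higher (1.37), though its alleles differ from the reference in many people and read mapping there is uncertain. Of the class I and peptide loading genes, 2 of 18 tested members were called higher and 14 lower (median -0.83). With median-of-ratios scaling 5 were higher and 12 lower (median -0.54). The summed level of this list went from 5147 to 4579 CPM as deposited. The immunoproteasome subunits PSMB9, from 53.8 ± 5.75 to 8.21 ± 1.04 CPM (-2.57), PSMB8 (-2.27) and PSMB10 (-1.77), the peptide transporter TAP1 (-2.02), the trimming peptidase ERAP1 (-1.51) and the class I activator NLRC5 (-2.12) fell. B2M (-0.10, adjusted p = 0.14), the light chain itself, was not called; median-of-ratios scaling placed it among the higher genes (0.19), and it was called lower without DMSO replicate 1 (-0.17).

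Surface receptors split by gene. In the migration list 6 of 14 tested members were called higher and 7 lower, with a median of -0.14 (0.14 with median-of-ratios scaling, 7 higher and 5 lower). CXCR5, which guides B cells to follicles, fell from 227 ± 2.59 to 44.9 ± 3.6 CPM (-2.32), while CXCR4, which marks the dark zone of the germinal centre, rose from 48.3 ± 0.741 to 199 ± 9.63 CPM (2.02). RGS2 (2.19) and RGS1 (2.23) rose, and the integrin chain ITGB7 (-2.14) and the sphingosine phosphate receptor S1PR4 (-1.97) fell. Among costimulatory and SLAM receptors 5 of 18 tested members were called higher and 12 lower, against 31.4% and 55.8% of all genes (median -0.45). LY9, a SLAM family receptor, stood at 65.5, 71.4 and 68 CPM with DMSO and 889.6, 931 and 889 CPM with the inhibitor (log2 fold change 3.71, SE 0.0467, adjusted p = 5.30e-19), far above DMSO in each treated library. CD58 (-1.85), the BAFF receptor TNFRSF13C (-1.85), CD27 (-1.8) and SLAMF6 (-1.68) fell.

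Most genes of mitosis, DNA replication and recombination fell. Of the mitosis genes 26 of 27 were called lower and 1 was not called (median -1.61). PLK1, the polo kinase of mitotic entry, stood at 61.9, 62.4 and 57.8 CPM with DMSO and 10.9, 10.3 and 11 CPM with the inhibitor (log2 fold change -2.4, SE 0.0623, adjusted p = 1.63e-15). CDC20, an activator of the anaphase-promoting complex, fell from 53.4 ± 2.32 to 7.67 ± 0.548 CPM (-2.65) and AURKB, the kinase that corrects chromosome attachment, from 55.1 ± 3.44 to 10 ± 0.845 CPM (-2.35). The spindle motors KIF20A (-2.36) and KIF23 (-2.14) and the topoisomerase TOP2A (-2.24) fell too. Of the DNA replication genes 29 of 30 were lower and 1 was not called (median -1.19): the polymerase genes POLD1 (-2.22), POLA1 (-1.91) and POLA2 (-1.78), the helicase gene MCM4 (-1.77), the clamp loader gene RFC5 (-1.71) and the ligase gene LIG1 (-1.69). In homologous recombination and the Fanconi pathway 21 of 22 were lower (median -0.96), with FANCF at -2.21, FANCA at -1.74 and FANCD2 at -1.54. With median-of-ratios scaling 25 mitosis, 28 replication and 17 recombination genes were called lower, and 1 mitosis and 1 replication gene higher. Of the G1 regulators 8 of 25 were called higher and 13 lower, near the 31.4% and 55.8% of all genes. The inhibitor CDKN1A was at 1.28, CDK2 at 1.24, E2F1 at -1.35, CCND3 at -1.24 and the pocket protein gene RBL2 at -2.46.

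The enzymes that make nucleotides fell as well. All 14 pyrimidine and deoxynucleotide genes were called lower (median -1.5). CAD, which starts pyrimidine synthesis, stood at 319, 299 and 310.4 CPM with DMSO and 58, 55 and 57.6 CPM with the inhibitor (log2 fold change -2.42, SE 0.0464, adjusted p = 5.48e-17). The ribonucleotide reductase subunit RRM2 fell from 133 ± 6.53 to 24.1 ± 3.35 CPM (-2.42), DHODH by 1.77, DTYMK by 1.99 and NME1 by 1.69 on the log2 scale. Of the purine genes 1 of 12 tested members were called higher and 11 lower (median -1.09), led by PFAS, from 96.4 ± 2.41 to 13 ± 0.673 CPM (-2.8), with ADSL (-1.54), ATIC (-1.53), IMPDH1 (-1.37), APRT (-1.43) and PAICS (-1.3) below DMSO too.

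Ribosome biogenesis and ribosomal proteins behaved differently. Of the biogenesis genes 1 of 31 tested members were called higher and 29 lower (median -0.48), including RRS1 (-2.22), MYBBP1A (-2.13), RRP9 (-1.84), BOP1 (-1.61), PPAN (-1.2) and UTP20 (-1.16). With median-of-ratios scaling 5 biogenesis genes were higher and 19 lower (median -0.20). Of the ribosomal protein genes 3 of 80 tested members were called higher and 35 lower as deposited, but 56 were higher and 6 lower with median-of-ratios scaling, and the median turned from -0.12 to 0.16. Its largest falls were in paralogs rather than in the standard subunits: RPS27L (-1.35), RPL26L1 (-1.27), RPL39L (-1.23) and RPL22L1 (-0.85). Ribosomal protein genes have many processed copies, so their counts are uncertain. The MYC and MAX network had 3 of 10 higher and 5 lower, near the 31.4% and 55.8% of all genes (median -0.18). With the other scaling the network had 5 higher and 4 lower (median 0.10). Its MAX-binding antagonists changed most: MXD1 rose from 23.3 ± 0.992 to 186 ± 11.6 CPM (2.94) and MXI1 from 17.1 ± 0.402 to 61.3 ± 1.17 CPM (1.78), while MXD3 fell from 9.73 ± 1.04 to 1.72 ± 0.285 CPM (-1.98).

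Mitochondrial genes leaned downward in every list examined. Complex I of the respiratory chain had 35 of 37 subunit genes lower and 2 not called (median -0.76), with NDUFB7 (-2.31), NDUFS7 (-2.06) and NDUFV1 (-1.62) falling most. For ATP synthase 1 of 18 tested members were called higher and 17 lower (median -1.03), with ATP5C1 (-1.56) and ATP5I (-1.44) falling most. For mitochondrial ribosomal proteins 6 of 75 tested members were called higher and 61 lower (median -0.71), led by MRPS34 (-2.52) and MRPL12 (-2.07). In the citric acid cycle 2 of 21 tested members were called higher and 18 lower (median -0.67), with IDH2 (-1.75), MDH2 (-1.39) and PDHB (-1.19) below DMSO. Respiration genes and glycolytic genes therefore lay on opposite sides of 0 by their medians. Lipid synthesis changed less. Of the cholesterol genes 9 of 23 were called higher and 12 lower, against 31.4% and 55.8% of all genes. Their median of -0.28 was that of all genes. The other scaling called 11 higher and 10 lower (median 0.01). TM7SF2, a sterol reductase, was at -1.56 as deposited. In fatty acid synthesis 2 of 10 tested members were called higher and 8 lower, with ELOVL6 at -1.36 and FASN at -0.72.

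Cell death genes changed in both directions. In the BCL2 family 5 of 14 tested members were called higher and 7 lower, near the 31.4% and 55.8% of all genes (median -0.23). Median-of-ratios scaling gave 6 higher and 6 lower (median 0.06). BCL2L11, which encodes the killer protein BIM, stood at 22, 20.8 and 23.1 CPM with DMSO and 111, 117 and 112 CPM with the inhibitor (log2 fold change 2.32, SE 0.0548, adjusted p = 5.62e-16). BCL2L1, which encodes the survival protein BCL-XL, stood at 122, 131 and 127 CPM with DMSO and 30.3, 31.6 and 34.2 CPM with the inhibitor (log2 fold change -1.95, SE 0.0551, adjusted p = 4.56e-15). The groups were apart in both, in opposite directions. PMAIP1, which encodes NOXA, rose from 181 ± 8.3 to 521 ± 25.2 CPM (1.52), whereas the BH3-only genes BID (-1.27) and BMF (-0.91) fell. Of the p53 response genes 5 of 24 tested members were called higher and 15 lower (median -0.34), near the 55.8% lower and the median of -0.28 over all genes, and 9 higher and 12 lower with median-of-ratios scaling (median -0.05). FDXR (-2.37), DDB2 (-2.22), PHLDA3 (-1.91), AEN (-1.5) and FAS (-1.52) fell, and CDKN1A rose. Among death receptors and caspases 9 of 15 tested members were called higher and 5 lower (median 0.41). TNFRSF10D stood at 4.88, 5.75 and 6.73 CPM with DMSO and 161, 165 and 167 CPM with the inhibitor (log2 fold change 4.62, SE 0.0793, adjusted p = 1.63e-17), the signalling TRAIL receptor TNFRSF10A rose by 0.95 and CASP10 by 0.97. The adaptor FADD (-1.69) and the inhibitor CFLAR (-1.22) fell.

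Chromatin modifiers outside the Polycomb complexes included a list that rose. Of the histone lysine demethylases 13 of 17 tested members were called higher and 3 lower (median 0.63). KDM3A, which removes methyl groups from lysine 9 of histone H3, rose from 118 ± 5.66 to 354 ± 5.32 CPM (1.57). KDM6A (1.29) and KDM6B (1.0), which remove the mark that EZH2 writes, rose with KDM5B (1.13) and PHF8 (1.31), and KDM1B fell (-1.72). Of the DNA methylation genes 5 were higher and 5 lower of 11: the maintenance genes DNMT1 (-1.36) and UHRF1 (-1.64) fell, and the eraser TET2 rose (1.21). Of the splicing factors 7 of 24 tested members were called higher and 14 lower, near the 31.4% and 55.8% of all genes (median -0.22). The other scaling called 11 higher and 7 lower (median 0.07). As deposited, the splicing kinases CLK1 (1.77) and CLK3 (1.32) were higher and SRSF1 (-1.15) was lower. Among tubulins 7 of 9 were lower, TUBB from 1536 ± 41.2 to 346 ± 11.4 CPM (-2.15) and TUBA1B (-1.44) among them, and the neuronal form TUBB3 rose from 0.397 ± 0.122 to 4.64 ± 0.235 CPM (2.02).

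Most of this response was shared by direction with the other lines. In a fit of all 18 libraries, with 12769 genes tested, 26.8% of genes were called higher and 41.3% lower in SUDHL6, and 24.3% and 46.2% in SUDHL4. Of the 938 genes called at least 2-fold higher in Farage, 779 (83.0%) were called higher in SUDHL6 and 761 (81.1%) in SUDHL4, while 28 and 35 were called lower. Of the 2436 called at least 2-fold lower, 2013 (82.6%) and 2088 (85.7%) were called lower there, and 32 and 25 higher. The lines have DMSO libraries of their own. The median change of the 938 genes was 1.38 in Farage, which chose them, 1.03 in SUDHL6 and 1.11 in SUDHL4, and that of the 2436 genes was -1.38, -1.07 and -1.20. A smaller median outside the line that chose a list is not in itself a difference between lines, so differences were tested directly as the Farage response minus that of each other line.

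By that test 1929 genes (15.1%) responded above and 2767 (21.7%) below SUDHL6, and 2515 (19.7%) above and 2260 (17.7%) below SUDHL4. Above both lines were 1023 genes (8.01%) and below both 1257 (9.84%), but 112 of the former and 283 of the latter were under 1 CPM in all libraries of both other lines, where a response could hardly be measured. The response had opposite called directions in Farage and in both other lines for 64 genes above and 64 below. HSPA1A rose more in Farage on the log2(CPM + 1) scale, which compresses changes under 1 CPM: it was at 6.11 ± 0.593 and 171 ± 11.1 CPM with DMSO and inhibitor in Farage, 1.02 ± 0.0675 and 7.7 ± 0.387 CPM in SUDHL6 and 0.0897 ± 0.0964 and 0.693 ± 0.059 CPM in SUDHL4. ID3 went the opposite way to the other lines, at 5.21 ± 1.15 and 23.6 ± 2.52 CPM in Farage, 34.4 ± 3.43 and 21.1 ± 6.48 CPM in SUDHL6 and 25.5 ± 2.29 and 9.08 ± 2.71 CPM in SUDHL4. ADAM19, a membrane metalloprotease, kept most of its level in Farage, 149.6 ± 1.97 and 114 ± 10.8 CPM, and lost it in SUDHL6, 147 ± 19.3 and 17.5 ± 9.7 CPM, and SUDHL4, 280.2 ± 33.2 and 27.9 ± 2.49 CPM.

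TCL1B, a relative of the TCL1A oncogene, rose in Farage (0.841 ± 0.0711 and 7.31 ± 0.879 CPM) and fell in SUDHL6 (72.1 ± 10.5 and 12.7 ± 3.03 CPM), and SUDHL4 had little of it (1.08 ± 0.265 and 0.558 ± 0.161 CPM). The nuclear receptor gene NR4A2, 13.8 ± 0.988 and 102 ± 1.51 CPM in Farage, and STC2 stayed under 1 CPM in both other lines, as did G0S2, an inhibitor of lipolysis that reached 6.71 ± 0.298 CPM in treated Farage, and the homeobox gene MSX1, which reached 6.17 ± 1.05 CPM. GPR183, the receptor that guides B cells to the follicle edge, was the reverse case. It was at 2.85 ± 0.44 and 1.87 ± 0.324 CPM in Farage, called lower with that line alone in the fit but not with all 18 libraries, and rose in SUDHL6, 0.217 ± 0.257 and 7.63 ± 4.82 CPM, and SUDHL4, 1.15 ± 0.614 and 7.61 ± 1.02 CPM. The transmembrane protein PRRT3 fell in Farage, 38.8 ± 1.84 and 7.49 ± 1.06 CPM, was not called in SUDHL6, 4.27 ± 0.30 and 5.25 ± 0.835 CPM, and rose in SUDHL4, 1.1 ± 0.152 and 2.34 ± 0.147 CPM. The other 6 genes with the largest differences below both lines, XAF1, GBP4, an interferon-induced GTPase, JPH4, UNQ6494, the prostacyclin receptor PTGIR and TSPAN2, were expressed in Farage and under 1 CPM in every library of the other lines, so a fall could be measured in Farage alone.

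**Figure D5:**
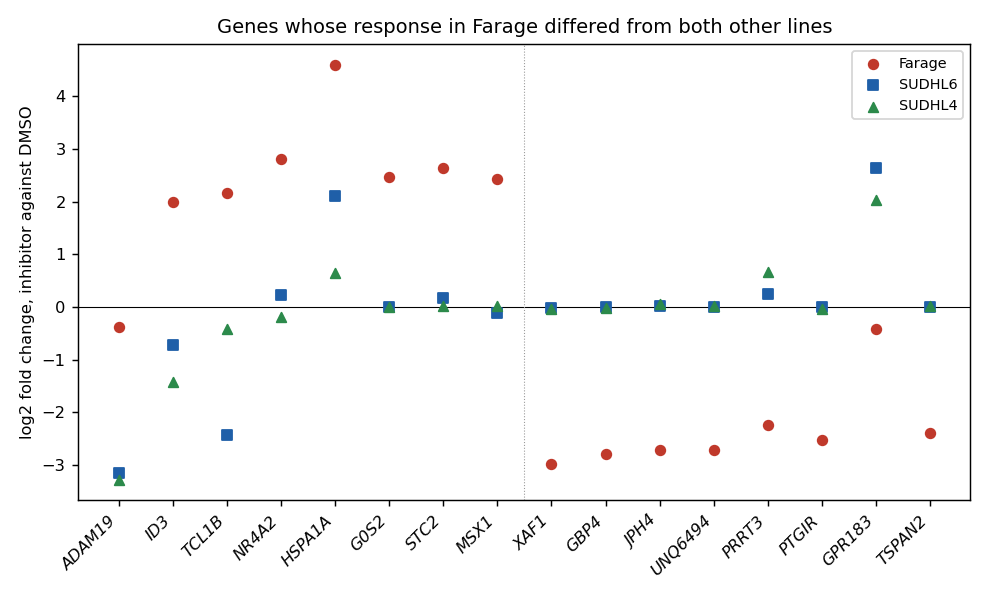
Log2 fold change of inhibitor against DMSO (y axis) in Farage (circles), SUDHL6 (squares) and SUDHL4 (triangles) from the fit of all 18 libraries, for the 8 named genes above both other lines (left of the dotted line) and the 8 below (right). For ID3, TCL1B, GPR183 and PRRT3 the lines lie on opposite sides of 0, though the Farage fall of GPR183 was not called in this fit, and for 10 of the 16 genes the other lines lie near 0, with the gene under 1 CPM in all their libraries.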

How the data were processed

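Deposited values are CPM made by the authors for 23250 gene symbols per library. Reads were aligned to hg19 with STAR, per the submitters' processing notes. A label of 1 sample also names Rsubread. For versions, annotation release and strand setting, nothing was given in the sources used here. Therefore overlapping genes cannot be told apart, and near-identical genes such as HSPA1A and HSPA1B share reads. All CPM values were whole reads within 0.01 reads (100% of values), which gave the read totals and the input of edgeR and DESeq2.

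Farage libraries alone were fitted (4 residual degrees of freedom) with limma 3.58.1 in R 4.3.3, with a variance trend, on log2(CPM + 1) as deposited; two-sided p-values were adjusted by Benjamini-Hochberg over 11629 genes. Differences between lines were contrasts in 1 fit of 18 libraries (12 residual degrees of freedom, 12769 genes). The labels name replicates but not their origin, and the spread behind the p-values, that between libraries of a group, may be technical only. Scripts were tested on simulated data.

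The members, 52 gene lists (902 genes, 5 found by another symbol) and 11 gene families were chosen with earlier results of these data known. Named are BCL6, EZH2, CBX8 and BCOR; the 15 largest rises and falls at a mean of at least 2 CPM without overlap; the 8 genes with most CPM gained or lost; 6 genes near absence in 1 group; up to 6 called members per list by size of change; and the 8 largest differences from both lines in each direction. B2M was added for its role though not called. Some genes that this rule takes are not reported here. Alternatives were a pseudocount of 0.25, no filter, a mean of at least 5 CPM, median-of-ratios scaling, a replicate block, the lines fitted together or by pairs, each library left out, edgeR 4.0.16 (quasi-likelihood) and DESeq2 1.42.0.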

Additional observations from a re-analysis of the deposited data

Results flagged for a closer look

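Of the genes whose response in Farage differed from both other lines by a direct test of the difference, the 16 named are given here (limma, fit of all 18 libraries, called against SUDHL6 and against SUDHL4). Each value is the Farage log2 response minus that of the nearer of the other lines. Above both lines were ADAM19 by 2.76, ID3 by 2.71, TCL1B by 2.58 and HSPA1A by 2.49. NR4A2 by 2.58, G0S2 by 2.47, STC2 by 2.47 and MSX1 by 2.42 were also above, with under 1 CPM in every library of the other lines. Below both lines were PRRT3 at -2.47 and GPR183 at -2.46. XAF1 at -2.94, GBP4 at -2.77, JPH4 at -2.74, UNQ6494 at -2.72, PTGIR at -2.47 and TSPAN2 at -2.41 were also below, with under 1 CPM in every library of the other lines. The 16 were ranked by the size of this difference, so the sizes are a description.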

How the results depend on the processing

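Of 3897 fold changes of the 282 genes named, over all alternatives, 3882 kept their direction and their side of the threshold. B2M, not called as deposited, became a rise under median-of-ratios scaling (0.19), edgeR (0.19) and DESeq2 (0.20). With each library left out BCL6 was at -0.00022 to 0.064, lowest without treated replicate 3. Genes called at least 2-fold higher numbered 938, and 1478 with median-of-ratios scaling, 1730 with edgeR and 1783 with DESeq2. Genes at least 2-fold lower numbered 2436, and 1567 with median-of-ratios scaling, 2046 with edgeR and 2002 with DESeq2. Calls higher made up 36% of all calls as deposited, 49.2% with median-of-ratios scaling, 49.3% with edgeR and 50.3% with DESeq2. Farage genes below SUDHL4 numbered 2260, and 3469 with only those lines in the fit; the cause was not tested. Leaving out each library gave 3303 to 3551 genes higher and 5898 to 6531 lower, with 792 to 946 and 2207 to 2530 past 2-fold. Against SUDHL6 it gave 1597 to 2273 above and 2292 to 3253 below, and against SUDHL4 2113 to 2983 above and 1850 to 2648 below.

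Deviations of same-numbered DMSO and treated libraries from their group means correlated at 0.17, -0.14 and -0.21 in Farage. Deviations within a group of 3 are tied to each other, so these values cannot decide whether the numbers pair the samples. With the replicate block 3601 genes were higher, 6447 lower, and 938 and 2436 past 2-fold; the differences numbered 2304 above and 3191 below SUDHL6, and 2885 above and 2680 below SUDHL4.

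With 3 libraries per group of 1 line, 1 dose and 1 time, no order of events can be read. CPM carry no measure of RNA per cell, so an overall loss of RNA could not be seen. Depth was even, and 1 CPM stands for 26.6 to 30.8 reads.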

Other observations

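Gene families taken by symbol added a few patterns not described above. The pattern for translation initiation factor symbols also takes in the Argonaute and eIF2 kinase genes of that spelling. Of its 53 tested members 19 were called higher and 27 lower, near the 31.4% and 55.8% of all genes (median -0.17). Median-of-ratios scaling gave 27 higher and 18 lower (median 0.12). EIF2C2, which encodes Argonaute 2, rose from 28.9 ± 2.24 to 176 ± 4.93 CPM (2.57), and EIF2AK3, which encodes the endoplasmic reticulum stress kinase PERK, from 51.8 ± 4.16 to 197 ± 8.08 CPM (1.91). The start site factors EIF1 (1.26) and EIF5 (1.47) rose and the exchange factor subunit EIF2B3 fell (-1.36).

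Of 414 tested ZNF zinc finger genes, 156 were higher and 174 lower (median -0.03, 0.23 with median-of-ratios scaling, 212 higher and 128 lower), with ZNF331 at 1.9 and ZNF512B at -1.88. Of the HOX cluster genes, known targets of Polycomb repression, 2 of 11 tested members were called higher and 8 lower (median -0.77), HOXA10 from 6.18 ± 0.182 to 1.66 ± 0.175 CPM and HOXC4 from 8.76 ± 0.25 to 3.36 ± 0.651 CPM among the falls and HOXA5 from 2.65 ± 0.288 to 4.8 ± 0.666 CPM among the rises. Of the snoRNA host genes, 3 of 13 tested members were called higher and 7 lower (median -0.18, 0.11 with the other scaling), with GAS5, a growth arrest transcript, at 0.66 and SNHG4 at -1.29.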
